A study of Homo sapiens with 2 samples.

Results

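The mitochondrial ribosomal proteins were taken as the protein-coding genes of the deposited RPKM table whose symbol is MRPL or MRPS followed by a number. The rule gave 78 genes of 60880 rows, 49 named for the large subunit (MRPL) and 29 named for the small subunit (MRPS). They were compared between 2 RNA sequencing libraries of SUM-159, a triple-negative breast cancer cell line, with 1 library per group. The first library came from cells labelled PD-L1L2-SE deficient, a genotype named for the super-enhancer that the series title links to both PD-1 ligand genes, and the control library from cells labelled sgVector. Whether the deficient cells are 1 clone or a pool is not stated. Since neither group had a replicate, no difference below has a replicate check and no p-value was computed.

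Mitochondrial ribosomes are built in the mitochondrial matrix from rRNA made there and from proteins that are encoded in the nucleus, made in the cytosol and imported. They translate the few proteins that the mitochondrial genome still encodes, all of them subunits of the respiratory chain and of the ATP synthase. Some of their proteins have counterparts in bacterial ribosomes and others are known only from mitochondria, so the particle holds more protein and less rRNA than its bacterial relatives. In a bulk culture, a smaller share of cells holding a transcript and less of that transcript per cell cannot be told apart.

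The deposited RPKM values (reads per 1000 bases of a gene and 1000000 reads on genes) came from 16381546 reads for deficient cells and 16206675 for sgVector cells. The mesenchymal and basal markers VIM, CD44, ZEB1, AXL, EGFR and FN1 lay between 7.31 and 390 RPKM in deficient cells and between 7.14 and 746 RPKM in sgVector cells. Their levels were not all alike in both libraries: VIM had 390 RPKM in deficient cells against 746 in sgVector cells, and FN1 297 against 229. ESR1, PGR, CDH1, EPCAM, GATA3 and PTPRC, which mark luminal, epithelial or blood cells, reached at most 0.853 and 1.38 RPKM. CD274, which encodes PD-L1, had 47 reads in deficient cells against 477 in sgVector cells, and PDCD1LG2, which encodes PD-L2, had 46 against 204.

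RefSeq promoters (GRCh38.p14, 250 bases before to 50 after a start) were listed for 69 of the 78 genes, in 85 windows. They were searched on both strands for letters that regulators of nuclear genes for mitochondria bind, in 4 short forms. The ETS form CCGGAAG, which GABPA recognises, stood in 33 of the 85 windows (38.8%), against 10.3% of all 35116 promoter windows in the table and 17.6% of the 12722 windows of protein-coding genes expressed here (mean of 1 RPKM or more). The YY1 core ATGGCGG stood in 25 windows (29.4%), against 5.55% and 9.90%. The NRF1 core GCATGCG stood in 7 windows (8.24%), against 3.91% and 5.86%, and the SP1 form GGGCGG in 51 (60%), against 45.0% and 67.3%. In 10 windows none of the 4 was present. These are matches of letters, and no binding was measured.

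The promoters of 6 genes are shown from 100 bases before to 30 bases after the start, with matches in capitals. Low ratios, with intervals wholly below no change, are represented by MRPS24 (chr7:43869488-43869617, minus strand), MRPS6 (chr21:34073478-34073607, plus strand), MRPL52 (chr14:22829787-22829916, plus strand) and MRPL51 (chr12:6493233-6493362, minus strand). MRPL1 (chr4:77862730-77862859, plus strand) had the highest ratio, and MRPS34 (chr16:1773105-1773234, minus strand) the highest level. 
MRPS24: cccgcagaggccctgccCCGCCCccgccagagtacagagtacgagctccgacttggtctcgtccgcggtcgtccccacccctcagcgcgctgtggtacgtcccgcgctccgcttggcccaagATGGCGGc
MRPS6: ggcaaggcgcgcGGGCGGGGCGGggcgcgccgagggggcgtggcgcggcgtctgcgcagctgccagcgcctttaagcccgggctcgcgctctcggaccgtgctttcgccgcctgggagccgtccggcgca
MRPL52: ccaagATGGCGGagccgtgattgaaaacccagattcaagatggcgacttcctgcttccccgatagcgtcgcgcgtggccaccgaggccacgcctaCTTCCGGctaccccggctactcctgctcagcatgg
MRPL51: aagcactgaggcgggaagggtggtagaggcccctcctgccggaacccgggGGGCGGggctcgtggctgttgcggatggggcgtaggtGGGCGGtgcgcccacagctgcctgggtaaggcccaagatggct
MRPL1: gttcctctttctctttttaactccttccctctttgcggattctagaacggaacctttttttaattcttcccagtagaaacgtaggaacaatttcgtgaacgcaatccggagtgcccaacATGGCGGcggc
MRPS34: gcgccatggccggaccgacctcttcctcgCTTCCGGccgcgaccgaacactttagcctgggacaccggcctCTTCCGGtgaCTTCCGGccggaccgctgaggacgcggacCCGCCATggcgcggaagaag
The MRPS34 window held 3 ETS matches and 1 YY1 match, and the MRPL52 window 1 of each. MRPS24 and MRPL1, at opposite ends of the ratios below, each held the YY1 letters within the 30 bases after the start. The MRPS6 and MRPL51 windows held only SP1 matches in the stretch shown. Members with an ETS match in a listed window had a median log2 ratio of -0.17 (30 genes) and those without -0.017, while the medians with and without a YY1 match were -0.031 (24 genes) and -0.15. With and without an SP1 match they were -0.17 (42 genes) and -0.045, and for the NRF1 core -0.15 (7 genes) and -0.099. None of these medians is corrected for GC content, with which the ratio moved.

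All 78 genes were expressed, with a mean of at least 1 RPKM over both libraries. Their levels spanned 0.954 to 52.3 RPKM in deficient cells and 1.20 to 64.5 RPKM in sgVector cells, with medians of 14.2 and 15.2 RPKM. MRPS34, a small-subunit protein without a bacterial counterpart, was the most abundant per length, at 52.3 RPKM in deficient cells and 64.5 in sgVector cells. Of the large subunit, MRPL36 had 51.0 RPKM against 49.1, MRPL37 had 44.6 against 53.4 and MRPL51 had 37.7 against 56.7. MRPL46 and MRPL53 were lowest, with 1.10 RPKM in deficient cells against 1.20 and 0.954 against 1.61. Most of the proteins enter the particle as single copies. The RPKM values spread over more than an order of magnitude in both libraries, but they depend on the deposited exonic lengths. MRPL42 had 1359 reads in deficient cells over 16393 bases (5.06 RPKM), and MRPL36 had 1165 over 1394 bases (51.0 RPKM). How much of the spread is due to length was not tested. Across the 78 genes the log10 levels of the libraries followed each other, with a Pearson r of 0.976 and a Spearman rho of 0.972 (across genes, which are not replicates). Together the genes accounted for 0.315% of reads from deficient cells and 0.345% from sgVector cells.

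**Figure D1:**
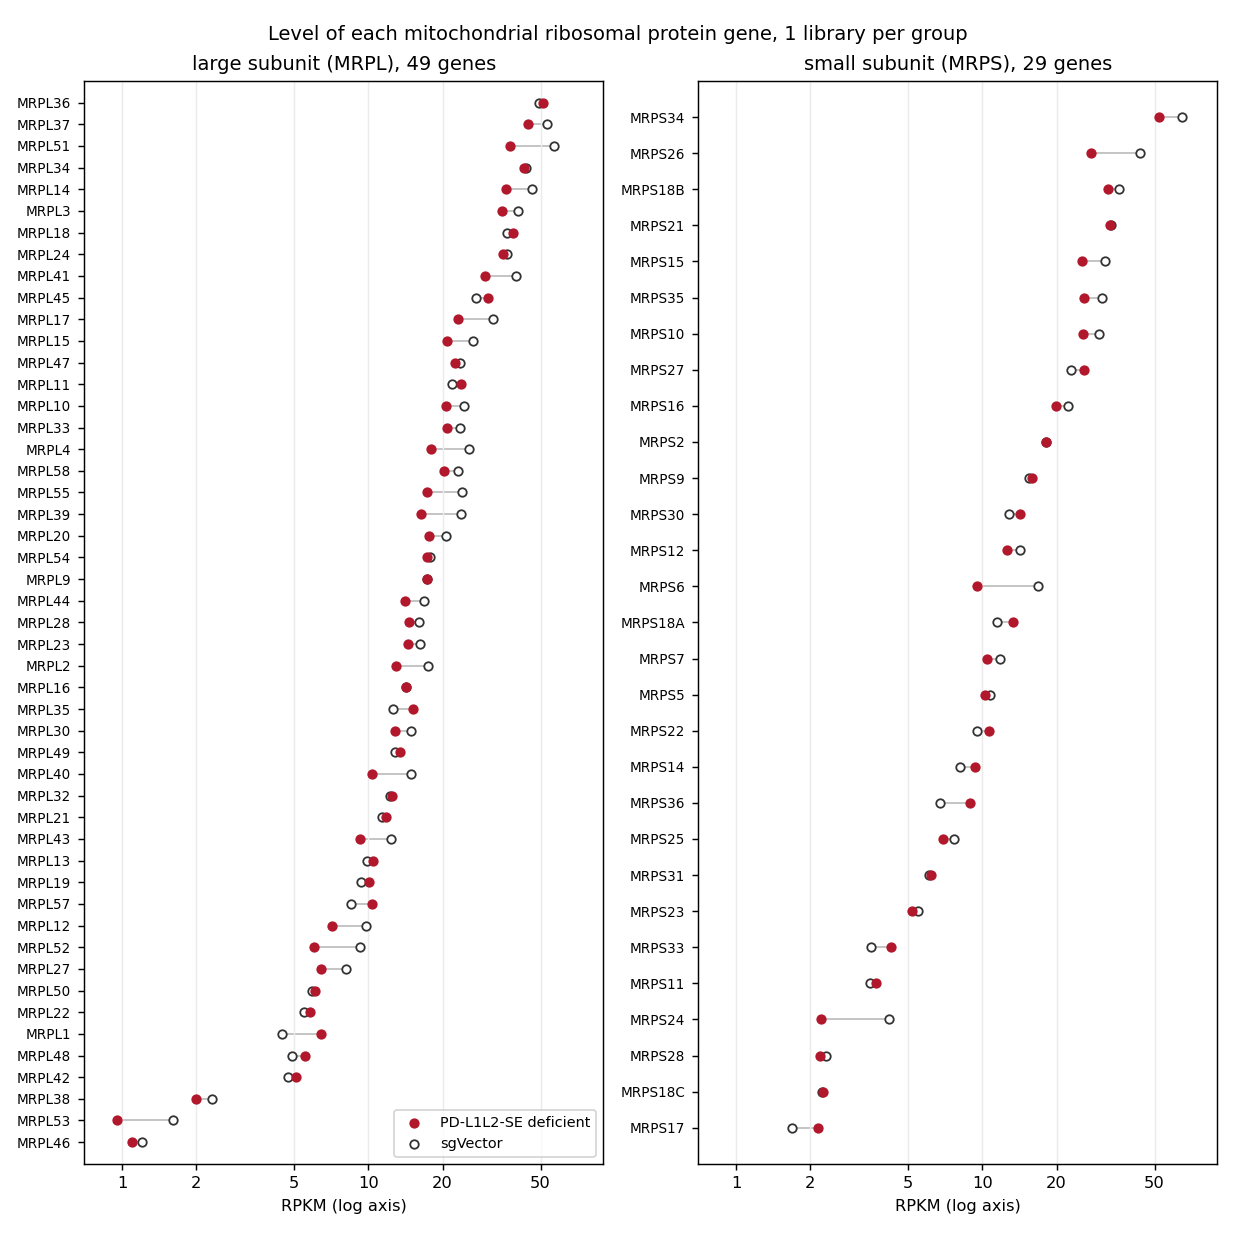
Level of each mitochondrial ribosomal protein gene in RPKM on a log axis, with filled points for the PD-L1L2-SE deficient library and open points for the sgVector library (1 library each, no error bars), large subunit left and small subunit right, genes ordered by their mean. The order runs from MRPL46 and MRPL53 near 1 RPKM to MRPS34 at 52.3 and 64.5 RPKM, and the filled and open points of most genes lie close together.

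The comparison asks whether the transcripts of this particle differed between the libraries. The ratio used is log2 of (RPKM + 0.1) in the deficient over (RPKM + 0.1) in sgVector cells, which slightly understates the change of low genes. The median over the 78 genes was -0.10, against -0.034 over the 10576 protein-coding genes averaging 1 RPKM or more, and 48 genes (61.5%) lay below 0, against a background of 53.6%. None of the 78 genes was 2-fold higher or 2-fold lower, against 2.10% of protein-coding genes higher and 2.07% lower. At 1.5-fold, 0 genes were higher (background 6.92%) and 6 were lower (7.69%, background 8.67%). The members' ratios had an interquartile range of 0.36, against 0.50 over protein-coding genes. That of cytosolic ribosomal protein genes was narrower, at 0.23, and so was that of nuclear respiratory chain genes, at 0.24. Ratios of the members ran from -0.88 for MRPS24 to 0.52 for MRPL1.

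Counting error alone is narrow at this depth, so each gene is given with a 95% Clopper-Pearson interval of its ratio of read shares. The half-width of that interval was 0.16 on the log2 scale for the median member and ranged from 0.079 to 0.84. The interval lay wholly below no change for 32 of 78 genes (41.0%), against a background of 34.8% among the 9442 expressed protein-coding genes with as many reads as the members had. It lay wholly above no change for 9 genes (11.5%), against a background of 28.5% among the same genes. It spanned no change for 37 genes. After correction of the ratios for GC content and length, 21 genes (26.9%) lay wholly below and 16 (20.5%) wholly above. The background here was 30.9% and 31.5% of all 10576 expressed protein-coding genes, which were not limited to the members' read range. How far cultures of the same kind would differ was not measured.

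**Figure D2:**
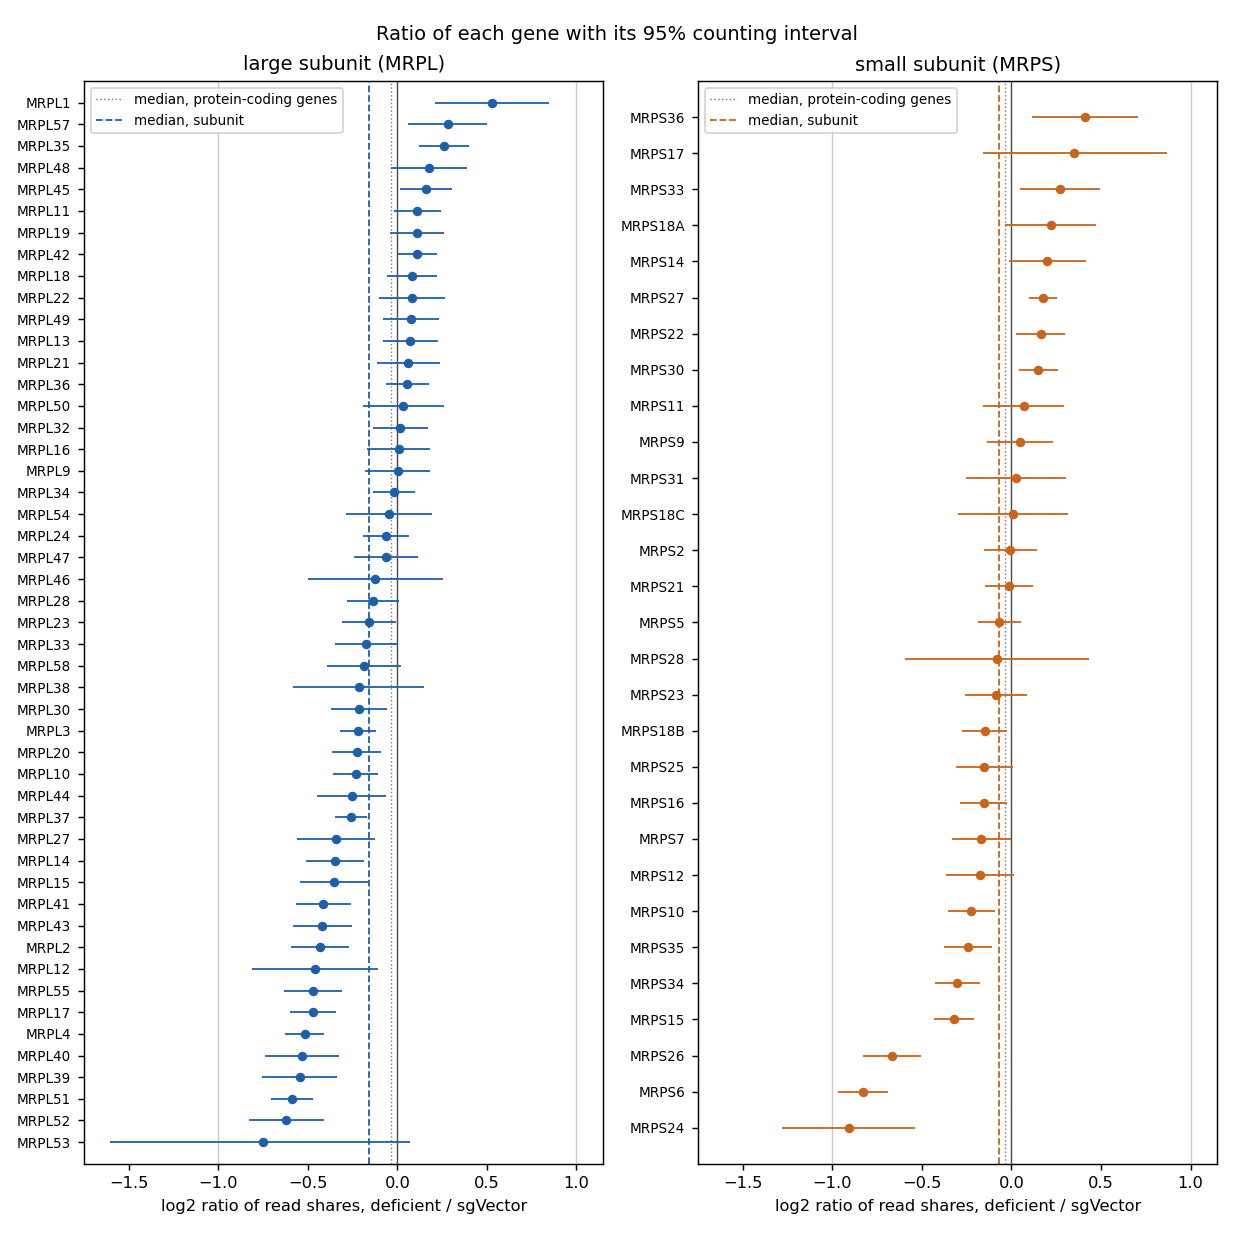
Log2 ratio of read shares, deficient over sgVector, for each member without a pseudocount (points) with its 95% counting interval (lines), large subunit left and small subunit right, sorted by ratio. Dashed lines mark each subunit's median log2 ratio with the pseudocount of 0.1 RPKM (-0.16 and -0.068; the small-subunit sign changes with TMM scaling and with a length correction), dotted lines the protein-coding median, and grey lines a 2-fold difference, which no point passes.

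Set side by side, the large subunit had a median ratio of -0.16 over 49 genes and the small subunit -0.068 over 29 genes. The small-subunit median changed sign with trimmed mean of M values (TMM) scaling (0.0072) and with a correction for gene length alone (0.043), while the large-subunit median stayed below 0 in all 17 alternatives (-0.18 to -0.011). The difference of the medians was -0.090, and with 1 library per group it has no error and no test. It became 0.055 when genes whose exons overlap another gene were left out, with medians of -0.062 over 25 large-subunit and -0.12 over 12 small-subunit genes. Below 0 lay 31 of 49 large-subunit genes (63.3%) and 17 of 29 small-subunit genes (58.6%). Summed over genes, the large subunit had 31811 reads in deficient cells and 35038 in sgVector cells, a log2 ratio of -0.15 (-0.18 to -0.13). The small subunit had 19730 and 20914 reads, a log2 ratio of -0.100 (-0.13 to -0.071), which TMM scaling brought to -0.024 (-0.052 to 0.0043).

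Symbols do not always name the right subunit. MRPS30 and MRPS18A sit in the large subunit in structures of the human particle. MRPS30 had 1445 reads in deficient cells and 1288 in sgVector cells, a log2 ratio of 0.15 whose interval (0.041 to 0.26) lay above no change, and -0.022 after the GC and length correction. Moving both to the large subunit gave medians of -0.14 over 51 genes and -0.077 over 27 genes, a difference of -0.059. MRPS36 carries the symbol but has been described as a subunit of the oxoglutarate dehydrogenase complex. It stood at 0.40, with 224 reads against 167, and without it the small-subunit median was -0.072.

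Within the small subunit 3 genes stood well below the rest. MRPS24, the counterpart of a bacterial protein at the mRNA entry, had 95 reads in deficient cells and 176 in sgVector cells, or 2.22 against 4.16 RPKM. Its read share was 1.87-fold lower in deficient cells (1.45 to 2.43), the largest difference of any member. In hg19 coordinates MRPS24 (ENSG00000062582) lies on chromosome 7 from 43906157 to 43909492 on the minus strand. Of its exonic bases 23.2% are shared with the read-through gene URGCP-MRPS24, which had 0 reads in both libraries, so the level of MRPS24 is uncertain. MRPS6, which also has a bacterial counterpart, had 667 reads against 1172, or 9.47 against 16.8 RPKM, and was 1.78-fold lower (1.61 to 1.96). MRPS6 (ENSG00000243927) lies on chromosome 21 from 35445524 to 35515334 on the plus strand, and shares 6.35% of its exonic bases with SLC5A3, a myo-inositol transporter gene, which stood at -0.40 with 1026 reads against 1342. MRPS26, found only in mitochondria, had 510 reads against 800, or 27.6 against 43.8 RPKM, and was 1.59-fold lower (1.42 to 1.78), with no exon shared with another gene. All 3 intervals lay wholly below no change, and after the GC and length correction the log2 ratios were -0.78 for MRPS24, -0.90 for MRPS6 and -0.37 for MRPS26.

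The next lowest small-subunit genes were closer to the rest. MRPS15 stood at -0.32 with 1208 reads against 1493, MRPS34 at -0.30 with 939 against 1146 and MRPS35 at -0.24 with 838 against 981. Their intervals lay below no change, although MRPS34, whose transcript is 64.5% GC, stood at 0.0035 after the GC and length correction. At the other end, MRPS36 was followed by MRPS17 at 0.33 with 76 reads against 59, MRPS33 at 0.26 with 368 against 302, MRPS18A at 0.22 with 281 against 239 and MRPS14 at 0.20 with 396 against 341. Among these 4 the interval lay above no change for MRPS33 alone. MRPS27, a protein with pentatricopeptide repeats, had the most reads of any member, 2752 in deficient cells and 2408 in sgVector cells, and its ratio of 0.18 had an interval of 0.098 to 0.26.

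The 3 MRPS18 genes encode paralogs of a single bacterial protein, of which MRPS18C takes the bacterial place. MRPS18C had 179 reads in deficient cells and 176 in sgVector cells, a log2 ratio of 0.0085 with an interval of -0.30 to 0.32. MRPS18B had 999 against 1096 (-0.15, interval -0.27 to -0.024) and 0.014 after the GC and length correction. MRPS18A had 281 against 239 (0.22, interval -0.036 to 0.47). At 32.3 RPKM in deficient cells and 35.8 in sgVector cells MRPS18B was the most abundant of the 3 per length, and MRPS18C, at 2.25 and 2.23, the least. Exons shared with ABRAXAS1 make up 40.2% of MRPS18C, and 604 of the 1284 exonic bases of MRPS18A are shared with RSPH9, so the levels of both are uncertain.

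In the large subunit the lowest ratio belonged to MRPL53, at -0.70, but it rests on 21 reads in deficient cells and 35 in sgVector cells, and its interval spanned no change (-1.61 to 0.068). MRPL53 shares 45.2% of its exonic bases with CCDC142. MRPL52, a mitochondria-specific protein, had 317 reads against 482, or 6.02 against 9.26 RPKM, and was 1.54-fold lower (1.33 to 1.78). MRPL51, also mitochondria-specific, had 959 reads against 1426, or 37.7 against 56.7 RPKM, a log2 ratio of -0.59 (interval -0.71 to -0.47). Of its exonic bases 31.3% are shared with the condensin gene NCAPD2 on the other strand, which stood at -0.32. MRPL39, which resembles part of a tRNA synthetase, stood at -0.54 with 321 reads against 463, MRPL40 at -0.53 with 332 against 475, and MRPL4, a counterpart of a bacterial protein lining the exit tunnel, at -0.51 with 1197 against 1695. The intervals of these 5 genes lay wholly below no change, and after the GC and length correction they stood between -0.58 for MRPL52 and -0.26 for MRPL4.

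MRPL1, whose bacterial counterpart forms the mobile stalk beside the tRNA exit site, had the highest ratio of all members. It had 204 reads in deficient cells and 140 in sgVector cells, or 6.41 against 4.45 RPKM, and was 1.44-fold higher (1.16 to 1.80). In hg19 MRPL1 (ENSG00000169288) lies on chromosome 4 from 78783674 to 78873944 on the plus strand, with no exon shared with another gene. It was followed by MRPL57, a mitochondria-specific protein, at 0.28 with 381 reads against 310, MRPL35 at 0.26 with 949 against 784, MRPL48 at 0.17 with 399 against 349, MRPL45 at 0.16 with 856 against 758 and MRPL11 at 0.11 with 986 against 903. Intervals lay above no change for MRPL57, MRPL35 and MRPL45 and spanned it for MRPL48 and MRPL11. MRPL45 anchors the particle to the inner membrane, and its unprocessed pseudogene MRPL45P2 carried 72 reads in deficient cells and 84 in sgVector cells, so reads of the pair are uncertain.

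The most abundant large-subunit genes, MRPL36, MRPL37 and MRPL51, did not share a ratio, and the GC and length correction moved each. MRPL36, the smallest bacterial-type protein of the subunit, stood at 0.055 with 1165 reads in deficient cells and 1109 in sgVector cells (interval -0.064 to 0.18), and at 0.37 after the correction. MRPL37 stood at -0.26 with 1862 against 2205 (interval -0.35 to -0.17), and at -0.077 after it. MRPL51 stood at -0.59 and at -0.45 after it. Of the stalk that recruits translation factors, MRPL12 stood at -0.45 with 120 reads against 163, MRPL10 at -0.23 with 938 against 1091 and MRPL11 at 0.11, and after the correction they stood at -0.14, -0.066 and 0.28. MRPL12 shares 68.2% of its exonic bases with a read-through gene at 0 reads in both libraries, so its level is uncertain. MRPL3, which reaches towards the peptidyl transferase centre, stood at -0.22 with 1549 reads against 1786, and MRPL58, a peptidyl-tRNA hydrolase that rescues stalled ribosomes, at -0.18 with 369 against 415 (interval -0.39 to 0.021). MRPL12, MRPL10, MRPL3 and MRPL58 were picked for their roles after their values were seen.

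Members were also split by descent, with a list set for this comparison that counts diverged paralogs and MRPL55 (-0.47) among the others. Placing single members differently could change the medians below. The 45 genes with a counterpart in bacterial ribosomes had a median of -0.068 and the 33 others -0.15, with 28 and 20 genes below 0. In the large subunit the medians were -0.063 over 29 bacterial-type and -0.23 over 20 other genes, and in the small subunit -0.072 over 16 and 0.025 over 13. The order was therefore not the same in both subunits, and after the GC and length correction the overall medians were -0.035 and -0.023.

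Gene length and base composition moved with the ratio. The members are short genes, with a median exonic length of 2539 bases against 5127 over protein-coding genes past the same level, and a median GC content of 47.7% against 48.0%. The large-subunit genes had a median GC content of 50.7% and the small-subunit genes 46.8%, with median lengths of 2539 and 2594 bases. Across the 78 genes the ratio had a Pearson r of -0.36 and a Spearman rho of -0.39 with GC content, and 0.24 and 0.27 with log10 length. Over protein-coding genes the corresponding values were -0.26, -0.32, 0.16 and 0.21. All points of each correlation come from the same pair of libraries, and GC content and length are themselves related among members (Pearson r of -0.41).

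Split into 3 equal classes by GC content, the members had median ratios of 0.029 (33.5 to 43.8% GC), -0.15 (44.2 to 51.8%) and -0.22 (52.2 to 71.9%), with 10, 17 and 21 of 26 genes below 0. All expressed protein-coding genes, divided between the same classes (31.3 to 44.1%, 44.1 to 51.9% and 51.9 to 73.9%), had medians of 0.11, -0.037 and -0.17. By length the member medians were -0.16 (959 to 1888 bases), -0.19 (1915 to 3027 bases) and 0.025 (3042 to 16393 bases), against -0.17 (207 to 1905 bases), -0.14 (1908 to 3032 bases) and 0.00022 (3033 to 44677 bases) for protein-coding genes. The class of highest GC content held 21 large-subunit and 5 small-subunit genes. Removing the GC trend and then the length trend left medians of -0.033 over all members, -0.066 over the large and -0.022 over the small subunit, a difference of -0.044. Whether GC content or length accounts for the ratios was not tested.

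**Figure D3:**
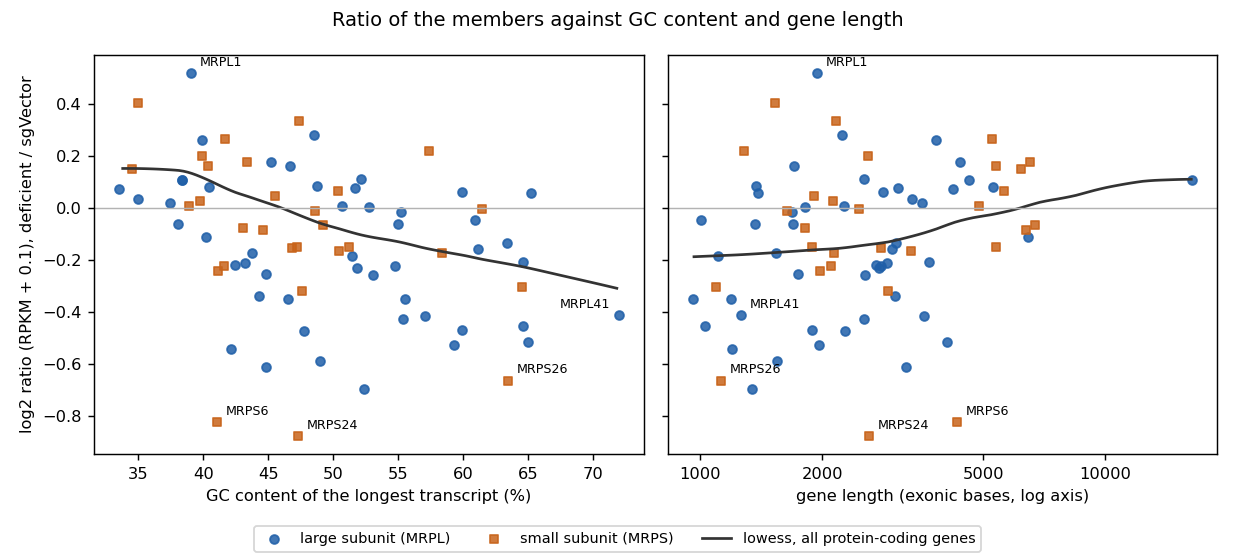
Log2 ratio of each member (deficient over sgVector, RPKM + 0.1) against the GC content of its longest transcript (left) and its exonic length on a log axis (right), with circles for the large and squares for the small subunit. The line is the lowess trend of all protein-coding genes. Members of low GC content lie around 0 and those above 52% GC mostly below it, while MRPS24 and MRPS6 lie far under the line at 47.2% and 41.0% GC.

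The members are spread over 21 chromosomes, and their ratios were set beside those of the protein-coding genes within 1 Mb. Across 77 genes with such neighbours, the member's ratio and the neighbours' median had a Pearson r of 0.48 and a Spearman rho of 0.49. These points share both libraries and the base composition of their regions. MRPL52 stood at -0.61 among 20 neighbours of which 20 were below 0 (median -0.40), and MRPL40 at -0.53 among 21 neighbours with a median of -0.41. MRPL57 on chromosome 13, at 0.28, had 10 neighbours with a median of 0.59, and the 180 protein-coding genes of that chromosome had a median of 0.46. MRPS31, also on chromosome 13, stood at 0.025 among 10 neighbours with a median of 0.43. The 5 members on chromosome 5 lay between 0.055 and 0.40, where the 505 protein-coding genes had a median of 0.12. MRPL53, MRPS24, MRPS6 and MRPL39 lay furthest from their surroundings, with neighbour medians of 0.060, -0.15, -0.21 and 0.033. Within 0.5 of theirs lay 71 of 77 members, where the ratios of all expressed protein-coding genes had quartiles of -0.28 and 0.22. Neither this count nor the correlation is given for other genes, so neither is read as particular to members.

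**Figure D4:**
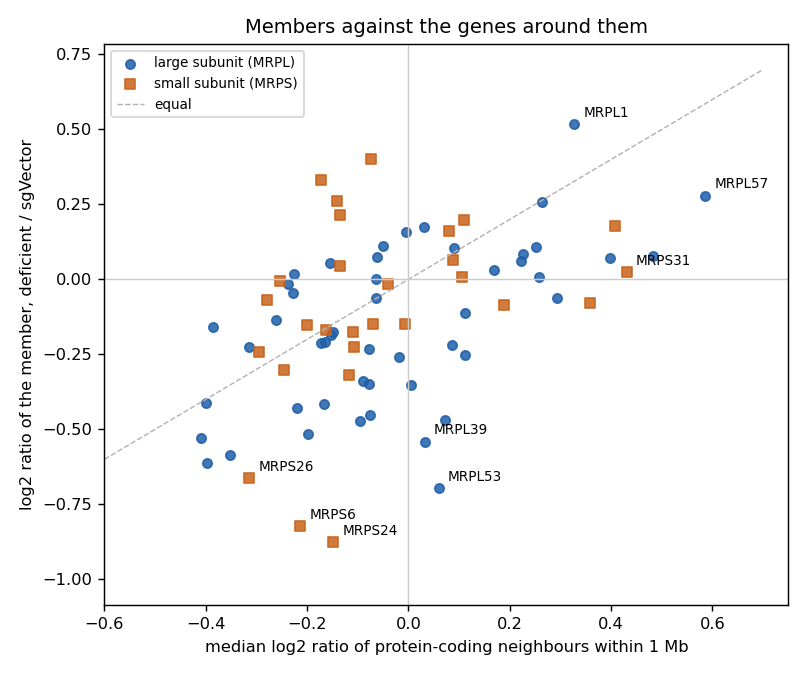
Log2 ratio of each member (deficient over sgVector) against the median log2 ratio of the expressed protein-coding genes within 1 Mb, circles for the large and squares for the small subunit, 77 genes, with a dashed line where both are equal. MRPL57 and MRPS31 lie below the line at neighbour medians of 0.59 and 0.43, and MRPS24, MRPS6, MRPL39 and MRPL53 lie far below it.

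Many of the genes are arranged head to head with another gene. A protein-coding gene on the other strand started within 1000 bases of 29 of 78 members (37.2%), against 18.6% of expressed protein-coding genes. Of 29 distinct pairs, 21 had a partner with a mean of at least 1 RPKM, and in 16 of these the ratios had the same sign. No such share is given for other head-to-head pairs, so the count is not read as particular to members. Some pairs also share exonic bases, such as MRPL51 and NCAPD2 with 486, and the strand setting of the counting is unknown. MRPL46 and MRPS11 start 34 bases apart in the deposited annotation and stood at -0.11 (116 reads in deficient cells against 125) and 0.066 (339 against 320), both with intervals that spanned no change. MRPL36 and NDUFS6, a subunit gene of respiratory complex I, stood at 0.055 and 0.057, and MRPL18 and the chaperonin gene TCP1 at 0.083 and 0.15. MRPL47 and the complex I gene NDUFB5 stood at -0.063 and 0.44, and MRPL43 and the mitochondrial helicase gene TWNK at -0.42 and 0.20, with opposite signs in both pairs.

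Sharing of exons and of sequence limits several values. Exons of 41 members overlap another gene in the deposited coordinates, and no source used here says whether counting used strand. Of 75 pseudogene rows named for members, 26 had a read, with 271 reads in deficient cells and 256 in sgVector cells in all. MRPS36P1 had 88 and 62 of these, at 17.5 and 12.5 RPKM, above its parent MRPS36 at 8.94 and 6.73 RPKM, so that reads of the pair are uncertain. MRPL3P1 had 51 and 50.

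The rest of the mitochondrial translation apparatus was described from lists. Mitoribosome proteins with other symbols, DAP3, PTCD3, CHCHD1, AURKAIP1 and GADD45GIP1, had a median of -0.21, and 5 of 5 were below 0 (background 53.6%). After the GC and length correction the median was -0.10 with 3 of 5 below 0, and AURKAIP1 and GADD45GIP1 stood at 0.13 and 0.028. CHCHD1 had 315 reads in deficient cells and 366 in sgVector cells (-0.23), GADD45GIP1 had 656 and 761 (-0.23), and AURKAIP1 had 1031 and 1181 (-0.21). DAP3, a GTP-binding protein of the small subunit, had 1478 and 1583 (-0.11), and PTCD3, a pentatricopeptide repeat protein, had 1880 and 1924 (-0.048). Of 25 genes for assembly and rRNA modification 17 were below 0 (background 53.6%), with a median of -0.13, or -0.055 after the correction, and none passed 2-fold (background 2.10% higher and 2.07% lower). The methyltransferase-like protein METTL17 stood at -0.62 with 672 reads against 1025, the rRNA dimethyltransferase TFB1M at -0.58 with 240 against 357, the pseudouridine synthase RPUSD4 at 0.62 with 340 against 216 and the neugrin gene NGRN at 0.29 with 291 against 233.

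Of 16 translation factors 7 were below 0 (background 53.6%), with a median of 0.055, which became -0.027 after the GC and length correction. TSFM, the exchange factor of the elongation factor TUFM, stood at -0.62 with 249 reads in deficient cells and 381 in sgVector cells, and MTRFR, a release factor relative, at -0.48 with 286 against 399. The release factor gene MTRF1 stood at 0.39 with 179 against 134, and the initiation factor gene MTIF3 at 0.36 with 388 against 299. TUFM itself had 94.3 RPKM against 107 (-0.18), and stood at 0.050 after the correction. Mitochondrial transcription and genome maintenance genes had a median of -0.098 over 10 genes, with POLRMT, the mitochondrial RNA polymerase, at -0.44 with 962 reads against 1291 and the elongation factor TEFM at -0.35 with 76 against 97. TFAM, which packages the genome, stood at 0.56 with 601 against 399 and TWNK at 0.20 with 377 against 324.

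The 2 mitochondrial rRNAs, the RNA partners of these proteins, were lower in deficient cells. MT-RNR1, the rRNA of the small subunit, had 697 reads against 1060 (-0.62) and MT-RNR2, that of the large subunit, 6741 against 8033 (-0.27). The labels' protocols name poly(A) enrichment or rRNA removal, and the part of either in these values was not tested. The 13 mitochondrial mRNAs had a median of -0.12, or -0.032 after the correction, with 10 below 0 (background 53.6%), or 8 after it. Summed, they had 1054465 reads against 1282443, a log2 ratio of -0.298 (-0.302 to -0.294). Their median length of 784 bases is far under the 5127 of the protein-coding genes used for the correction. MT-ND4 and MT-ND6 stood lowest at -0.61 with 162860 reads against 246604 and at -0.59 with 4064 against 6070. MT-ATP8 and MT-ND3 stood highest at 0.44 with 327 against 238 and at 0.13 with 10953 against 9929. MT-ATP6 stood at -0.46 with 66571 against 90636 and MT-ND4L at 0.087 with 24729 against 23029. The shortest of the 13 genes has 207 exonic bases, and how reads divide between neighbouring mitochondrial genes was not tested. Among regulators of nuclear genes for mitochondria, the coactivator PPARGC1A had 375 reads against 154, a log2 ratio of 1.18 with the pseudocount. Its read share was 2.41-fold higher in deficient cells (1.99 to 2.93). PPARGC1A was the single gene past 2-fold among the lists of this apparatus and its regulators (background 2.10% higher and 2.07% lower). Its interval reached just below 2-fold, and after the GC and length correction its log2 ratio was 0.998, also just under 2-fold. Its level was near the floor, at 2.11 RPKM in deficient cells and 0.874 in sgVector cells. The 10 regulators had a median of 0.044. PPARGC1B stood at 0.39 with 304 reads against 225, GABPB1 at -0.28 with 389 against 468 and PPRC1 at -0.43 with 1236 against 1653. The nuclear receptor gene ESRRA stood at 0.33 (interval 0.20 to 0.46) and at 0.60 after the correction, and GABPA, YY1, SP1, MYC and NRF1 at 0.14, 0.067, 0.021, -0.030 and -0.18, each with an interval that spanned no change. Beside the members' median of -0.10, the median was -0.12 for 80 genes of the cytosolic ribosome and -0.031 for 77 nuclear genes of the respiratory chain, with interquartile ranges of 0.36, 0.23 and 0.24. Of the cytosolic genes 2 were at least 2-fold lower in deficient cells (background 2.07%). The difference between these lists was not tested.

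**Figure D5:**
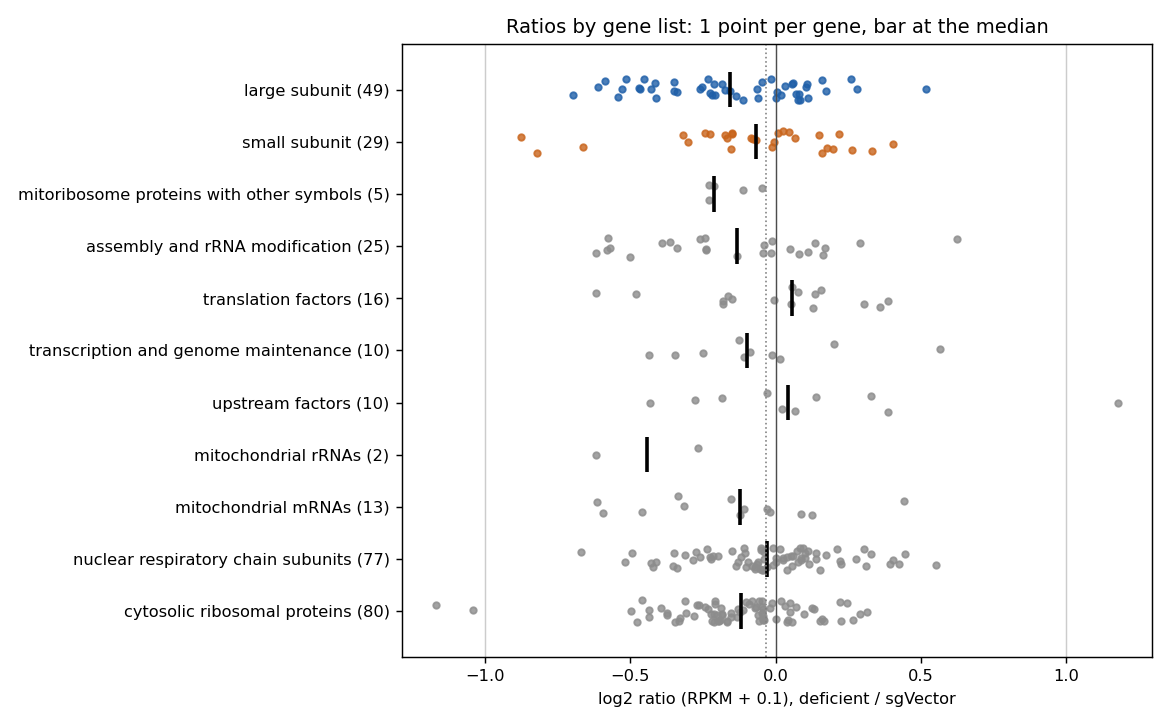
Log2 ratio (deficient over sgVector, RPKM + 0.1) of every gene averaging 1 RPKM or more in each list, 1 point per gene with random vertical spread, a bar at each median, the number of genes in brackets, a dotted line at the protein-coding median of -0.034 and grey lines at 2-fold. The large-subunit median is -0.16 and the small-subunit median -0.068 (0.0072 with TMM scaling, 0.043 with a length correction), and PPARGC1A lies furthest right at 1.18.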

How the data were processed

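Gene reads were counted with featureCounts 1.6.4 of Subread on GRCh37 (hg19), per the submitters' processing notes. No source used here names the aligner, annotation release or strand setting. The authors deposited RPKM values for both libraries, beside exon positions and lengths, per the file headers. Multiplying RPKM by length recovered whole reads (100% of values, tolerance 1e-06), from which intervals were computed. Of 60880 rows, 56858 matched GENCODE release 29, the source of gene types and GC content. The 41 pseudoautosomal Y rows were left out. A value of 0 allows up to 3 reads, 0.183 (deficient) or 0.185 (sgVector) per 1000000. Intervals and floors cover counting error only, because PCR duplicates cannot be told from separate molecules.

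Log2 ratios used a pseudocount of 0.1 RPKM and a floor of 1 RPKM on the mean. Lowess trends (share 0.3) were fitted over protein-coding genes, first against GC content, afterwards against log10 length. Full values are given for the 6 highest, 6 lowest and 3 most abundant members of each subunit, the MRPS18 paralogs, MRPS30 and any member past 2-fold, and for the 2 highest and 2 lowest genes of other lists, except the cytosolic ribosome and respiratory chain lists, which are given by medians. Further genes were named for their role or position after their values were seen. Members and lists were chosen with earlier results of these data known. Steps were tested on simulated data. Software was Python 3.11.15 with numpy 2.4.6, scipy 1.17.1, pandas 2.3.3, matplotlib 3.10.9 and statsmodels 0.14.6.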

Additional observations from a re-analysis of the deposited data

How the results depend on the processing

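No paired analysis was possible because each group holds 1 library. Alternatives were pseudocounts of 1 and 0.01 RPKM, a floor of 5 RPKM or none, TPM, TMM, upper-quartile and median scaling, removal of mitochondrial genome reads, lowess corrections, and removal of members with shared exons or on chromosome 13. Subtraction of the neighbours' median and removal of MRPS36 were added after the data were seen. The medians have no error of their own here. That of all members ranged from -0.14 to -0.0037 over 16 alternatives and that of the large subunit from -0.18 to -0.011 over 17, both nearest 0 with the length correction. The small-subunit median changed sign with TMM scaling (0.0072) and length correction (0.043), and the large minus small difference without members sharing exons (0.055), where 22 of 37 members lay below 0. TMM scaling adds 0.076 to every ratio by construction, which brought the summed reads to -0.079 (large) and -0.024 (small) and 17 members (21.8%) wholly above no change, against 36.9% of protein-coding genes; removal of mitochondrial genome reads gave -0.18 for the large subunit. After the GC and length correction 21 members (26.9%) lay wholly below and 16 (20.5%) wholly above no change, against 30.9% and 31.5% of protein-coding genes. With a 1.5-fold threshold, lower by construction, 6 members were lower in deficient cells. That correction turned 4 of the 41 members with an interval on 1 side of no change, MRPL23 (0.10), MRPS18B (0.014), MRPS30 (-0.022) and MRPS34 (0.0035). It moved 7 other named members beyond their counting interval with the same sign, MRPL4, MRPL11, MRPL36, MRPL37, MRPL40, MRPL51 and MRPS26. The cause was not tested. Depth limits the least covered members most, MRPL53 with 21 and 35 reads, MRPS28 with 65 and 68 and MRPS17 with 76 and 59.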
